A study of Mus musculus with 2 samples.

Results

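The cells described here are Xcr1 Clec9a conventional type 1 dendritic cells from subcutaneous TSA tumours. A cell was taken as a member when it held 2 or more UMIs of Xcr1 and Clec9a together, no UMI of Cd3e or Ncr1, and C1qa, C1qb and C1qc below 0.2% of its UMIs (unique molecular identifiers, 1 per captured molecule of RNA). The members were thus selected on measured UMIs of these 7 genes. Of 6198 cells, 61 met this rule. The untreated library gave 30 of its 2922 cells and the NAM library gave 31 of its 3276 cells. TSA is a mammary adenocarcinoma line grown in BALB/c mice. Nicotinamide (NAM), a form of vitamin B3, was given to 1 group at 0.5% in drinking water for 10 days once tumours had reached 0.25 cm2, and the other group stayed untreated. Both groups carried the same tumour line, and CD45+ leukocytes were enriched on magnetic beads from pooled tumours of 3 mice per group. There was therefore 1 library per group, no difference between the groups has a replicate check, and the effect of NAM and that of the library cannot be told apart. No test was made, since single cells do not replicate a treatment. All intervals are exact 95% intervals and cover counting error only, not the spread between cells, mice or libraries.

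Conventional type 1 dendritic cells take up material from dying cells and present it to CD8+ T cells on MHC class I, a route called cross-presentation. They form from precursors that respond to the Flt3 ligand, under the transcription factors Irf8, Batf3 and Id2. Xcr1 is the receptor for a chemokine made by NK cells and activated CD8+ T cells, and Clec9a is a lectin that binds actin exposed by dead cells. Once activated, these cells start to express the chemokine receptor Ccr7, which guides dendritic cells to draining lymph nodes, and some of them make Il12b, a subunit of interleukin 12.

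The values that chose the members are given as a description. An Xcr1 UMI was present in 27 of 30 untreated and 31 of 31 NAM members, and a Clec9a UMI in 26 and 25. Both RNAs were seen in 23 untreated and 25 NAM members. The median member held 5 UMIs of the pair when untreated and 7 under NAM, with highest values of 16 and 25. At the threshold of 2 UMIs lay 4 untreated and 3 NAM members, and 4 and 10 further cells that met the other conditions held 1 UMI. The complement limit separated cells cleanly. The highest C1q share of a member was 0.128% (untreated) and 0.0752% (NAM), and the 5 and 8 cells that had enough Xcr1 and Clec9a but failed this limit had at least 1.09% and 1.05%.

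Members were deep cells. Their median was 16087.5 UMIs (range 5123 to 28445) for untreated and 15941 (3992 to 26805) for NAM members, with 480635 and 445571 UMIs in all. The 2424 untreated and 2696 NAM other myeloid cells, which are cells outside the rule with no Cd3e or Ncr1 UMI and at least 0.5% of UMIs from Lyz2, Cst3, Csf1r, Fcgr3 and Ctss, had medians of 9310.5 and 9288 UMIs. A rule that asks for 2 UMIs finds fewer cells when they are shallow. When every cell was thinned to 3000 UMIs before the rule was applied, 7 untreated and 17 NAM cells remained. The libraries shared 11 cell barcodes, and 0 members carried one of them.

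Members made up 1.03% of untreated cells (Clopper-Pearson interval 0.694 to 1.46) and 0.946% of NAM cells (0.644 to 1.34). Dividing the NAM share by the untreated share gave a log2 value of -0.12 (-0.89 to 0.66), so no difference in abundance was detectable at this number of cells. As a share of myeloid cells, members were 1.22% and 1.14%. With thinning before the rule this value was 1.12 (-0.23 to 2.63), in the other direction but with an interval that still held 0. The bead enrichment can set such shares.

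Summed over the members, the marker genes fitted the label, though single members varied. Of 20 markers of this cell type, 16 had at least 40 UMIs in the members over both libraries, and 14 of these 16 were 2 fold or more higher than in other myeloid cells in both libraries. Xcr1 and Clec9a, which the rule used, are among the 14, and without them the count was 12 of 14. Over all 2553 genes with that many UMIs, 247 were 2 fold or more higher in both libraries (9.67%) and 137 were 2 fold or more lower (5.37%). Without Xcr1 and Clec9a the other 18 markers summed to 5539 CPM (UMIs per 1000000 UMIs of the class) in untreated and 6129 CPM in NAM members, against 647 and 698 CPM in other myeloid cells. In 2 other classes of dendritic cells, Ccr7 Fscn1 and Cd209a cells, these 18 markers summed to 1867 and 1012 CPM untreated. Under NAM the sums were 1650 and 861 CPM. The lowest single member reached 897 CPM (untreated) and 3143 CPM (NAM), so the lowest untreated member lay below both of these classes. All 6 macrophage markers that had enough UMIs were 2 fold or more lower, 3 of them C1q genes of the rule. Without the C1q genes, which the rule limited, the other 11 macrophage markers summed to 2276 and 2406 CPM in members and to 34478 and 33345 CPM in other myeloid cells. The defining marker of the other conventional dendritic cells, Cd209a, had 0 UMIs in the 61 members. T cell, NK cell, B cell and epithelial markers summed to at most 29.1 CPM in members of either library.

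Apart from the rule's own genes, Gcsam was furthest above other myeloid cells. Gcsam (chr16:45610380-45622867, mm10, plus strand, protein-coding) had 94 UMIs in 26 untreated members and 123 UMIs in 29 NAM members. That was 196 CPM (Poisson interval 158 to 239) and 276 CPM (229 to 329), against 0.370 and 0.337 CPM in other myeloid cells, for log2 ratios of 8.98 and 9.60. Cd24a (chr10:43578284-43584265, plus strand, protein-coding), a glycosylated surface protein, was seen in 29 of 30 and 30 of 31 members, with log2 ratios of 7.08 and 7.53. The ratios of the septin Sept3 were 8.49 and 7.23, those of the inhibitory receptor Btla 6.93 and 8.03, and those of the integrin Itgae (CD103) 7.09 and 6.70. These genes were all near 0 in macrophages and above 0 in most members.

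The other genes among the 20 furthest above other myeloid cells covered several functions. The cytokine receptor Flt3 had ratios of 6.05 and 5.36, and the surface protein Hepacam2 had 5.76 and 6.82. Ffar4, a fatty acid receptor, was at 4.92 and 5.51. Cbfa2t3, a transcriptional corepressor, was at 4.89 and 4.83, and St3gal5, which makes the ganglioside GM3, was at 4.71 and 5.24. Among the rest were the septin Sept6 (5.06 and 4.66), the sulfotransferase Sult1a1 (4.56 and 5.63), the lipid phosphatase Plpp1 (4.10 and 5.06), the adaptor subunit Ap1s3 (4.39 and 4.16), the phosphatase inhibitor Ppp1r14a (5.73 and 5.23), the calcium-binding membrane protein Mctp1 (4.72 and 5.55), Fam149a (4.87 and 5.24), the noncoding RNA 2310031A07Rik (5.44 and 5.76) and 6430531B16Rik (5.11 and 4.30). Plet1, a surface protein of epithelial and dendritic cells, had ratios of 7.18 (untreated) and 4.64 (NAM), the widest gap among the 20. It is taken up again below.

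Of 10 tested lineage transcription factors, 3 were 2 fold or more higher in the members than in other myeloid cells in both libraries. Over all genes that share was 9.67%. The median log2 ratio of the 10 was 0.93 (untreated) and 0.47 (NAM). Not every factor was higher in the members than in Ccr7 Fscn1 dendritic cells. Irf8 had 849 UMIs in 30 of 30 untreated and 892 UMIs in 31 of 31 NAM members, and log2 ratios over other myeloid cells of 2.87 and 2.89. Batf3 was at 2.33 and 1.85 and Id2 at 1.04 and 0.89. In Ccr7 Fscn1 dendritic cells Id2 was above the members, at 1971 and 1948 CPM against 1400 and 1010 CPM, and Batf3 was at 77.5 and 139 CPM against 110 and 98.7 CPM. Naaa, a lysosomal amidase, was at 3.34 and 3.48, and Wdfy4, which cross-presentation needs, was at 3.76 and 3.99. The chemokine receptor Cxcr3 was at 3.63 and 4.77, and the receptor tyrosine kinase Kit was at 4.67 and 3.65. Cadm1 and Rab7b, also markers of this cell type, were also seen in macrophages and gave ratios of 0.79 and 1.10, and of 0.72 and 1.55. Each library is 1 value of this contrast, and both had the same sign for every gene of this paragraph.

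**Figure D1:**
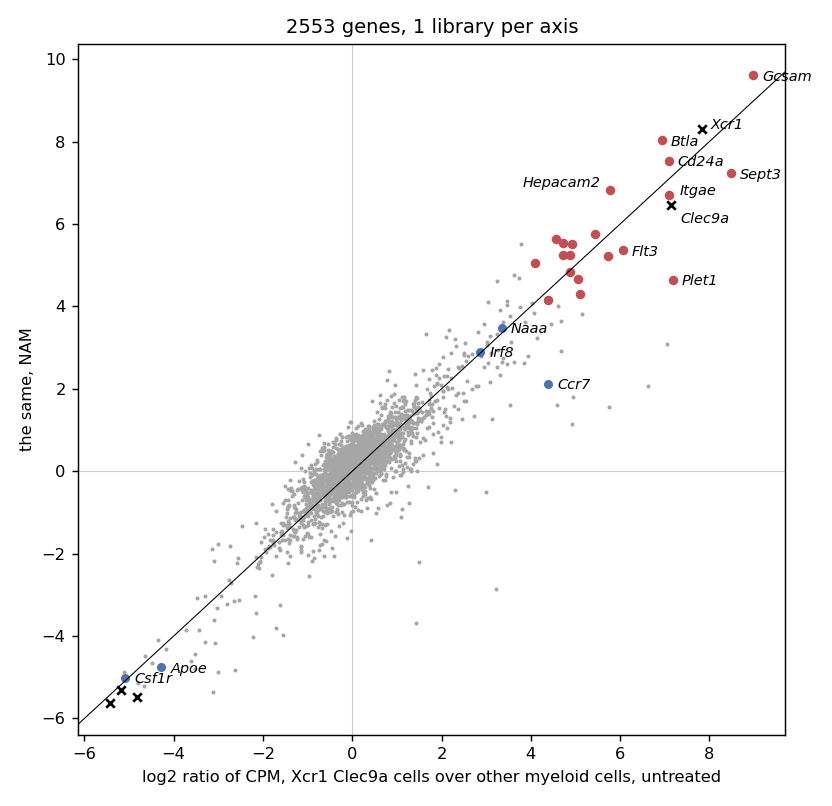
Log2 ratio of CPM, Xcr1 Clec9a cells over other myeloid cells, in the untreated library (x axis) and the NAM library (y axis), 1 point per gene for 2553 genes. Red points are the 20 genes furthest above other myeloid cells, black crosses are genes the rule used, blue points are other named genes and the line marks equal values. Gcsam lies at 8.98 and 9.60, and Plet1 and Ccr7 lie below the line.

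Because members were deep, shares of cells with a UMI were compared after thinning each cell to 3000 UMIs. Cd24a was then seen in 76.7% of untreated and 83.9% of NAM members, but in 0.5% and 0.3% of C1q macrophages and in 1.2% and 1.7% of T cells, which should lack dendritic cell RNA and so show the level that free RNA in droplets gives. Unthinned, Cd24a was in 96.7% and 96.8% of members. Thinned shares of Gcsam were 33.3% and 51.6% in members and at most 0.6% in T cells. Naaa was in 86.7% and 100% of members, but also in 41.7% and 57.5% of Cd209a dendritic cells and in 30.1% and 32.0% of C1q macrophages. The median T cell had 4656 and 4497 UMIs. Flt3 was in 33.3% and 22.6% of members and in 30.8% and 35.7% of Ccr7 Fscn1 dendritic cells (13 untreated and 14 NAM cells). In Cd209a dendritic cells (36 and 40 cells) its shares were 5.56% and 12.5%, and no T cell had a Flt3 UMI after thinning. Irf8 was in 84.6% and 71.4% of Ccr7 Fscn1 cells. Its share was at most 32.5% in Cd209a cells, below the 43.1% and 47.5% of T cells. Naaa was in only 7.69% of untreated Ccr7 Fscn1 cells and in none under NAM. Neither class had a Gcsam UMI after thinning.

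**Figure D2:**
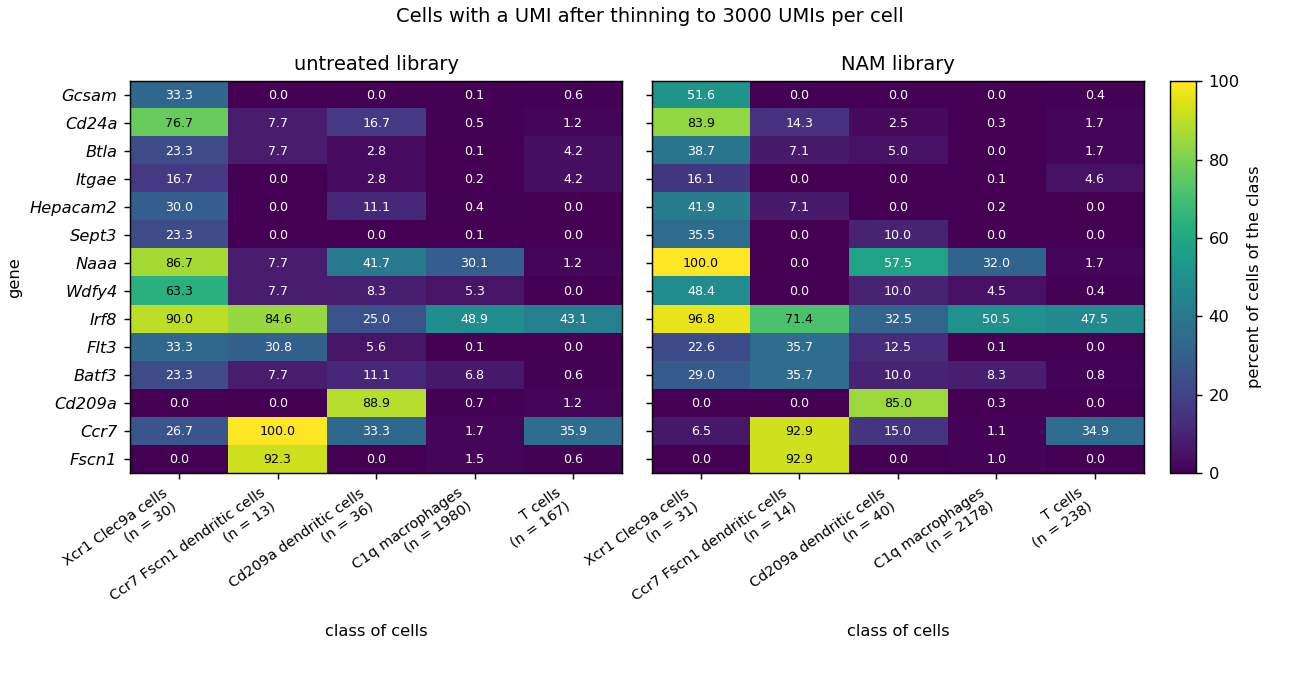
Percent of cells with a UMI of each gene (rows) after thinning to 3000 UMIs, in 5 classes of cells (columns) of the untreated and NAM libraries. Cd24a was found in 76.7% and 83.9% of Xcr1 Clec9a cells, Cd209a in 0.0% of them, and Fscn1 in 92.3% and 92.9% of Ccr7 Fscn1 dendritic cells.

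The members were not uniform. In the untreated library 8 of 30 members held 5 or more UMIs of Ccr7 (chr11:99144196-99155077, minus strand, protein-coding), and in the NAM library 1 of 31 did. The 8 untreated members held 88, 76, 73, 53, 50, 26, 16 and 8 UMIs, and the NAM member held 46. All other members held 0, 1 or 2, so no member lay near the limit of 5 UMIs, which was set after the values were seen. The shares were 26.7% (12.3 to 45.9) and 3.23% (0.0816 to 16.7), and their intervals overlapped. Across both libraries the remaining 22 untreated and 30 NAM members held 1 and 5 Ccr7 UMIs in all. Thinned to 3000 UMIs, a Ccr7 UMI was found in 26.7% and 6.5% of members.

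Other RNAs went with Ccr7 in the untreated library. Ramp3, which pairs with calcitonin family receptors, had 116 UMIs in the 8 Ccr7-high members and 4 in the other 22. Samsn1, an adaptor of lymphocyte signalling, had 60 and 0 UMIs. Il12b had 147 and 13 UMIs, but 119 of them sat in a single member. The costimulatory receptor Cd40 had 42 and 17, the adaptor Traf1 73 and 40, and the NF-kB subunits Relb and Nfkb1 had 36 and 16, and 38 and 29 UMIs. Serpinb9, an inhibitor of granzyme B, had 123 and 28 UMIs. The kinase Map3k14 (NIK), which drives noncanonical NF-kB signalling, had 31 and 6. These values were used to find the pattern and are a description.

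Several marker RNAs were at a lower level in the untreated Ccr7-high members. Naaa was at 570 CPM in them against 1757 CPM in the other untreated members, Irf8 at 667 against 2189 CPM, and Cd24a at 240 against 706 CPM. Plet1 went the other way, at 517 against 397 CPM. The 18 markers outside the rule summed to 2833 CPM in the 8 members and to 6579 CPM in the other 22, while the NAM Ccr7-high member had 5836 CPM against 6129 CPM in all NAM members. Single members differed widely, and Naaa ranged from 0 to 37 UMIs among the 8. Beside the separate Ccr7 Fscn1 dendritic cells, some RNAs were at a similar level and others were not. In untreated cells Il12b was at 1102 CPM in the Ccr7-high members and 878 CPM in the Ccr7 Fscn1 cells, Nfkb1 at 285 and 250 CPM, Ramp3 at 869 and 1248 CPM and Cd40 at 315 and 499 CPM. Fscn1, an actin bundler of mature dendritic cells that chose the Ccr7 Fscn1 class, so that its level there is no finding, was at 59.9 CPM in the Ccr7-high members and at 4802 CPM in the untreated Ccr7 Fscn1 cells. Of the 8 Ccr7-high members, 2 held UMIs of both Ccr7 and Fscn1. Ccl5 was at 135 and 12031 CPM, and Ccl22 at 105 and 1274 CPM. The Ccr7 Fscn1 cells numbered 13 untreated and 14 NAM cells, and their Ccr7 level was 4621 and 3698 CPM.

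The single NAM member with much Ccr7 held 1 Ramp3, 0 Samsn1 and 0 Il12b UMIs, but 64 UMIs of Isg15, 62 of Serpina3g and 26 of Cxcl9. Type I interferon response genes took 34764 CPM of its RNA, the highest value of any member in either library. Among the untreated 8 the same list ranged from 2910 to 25001 CPM. They varied in the same genes, with 0 Il12b UMIs in 4 of the 8, 0 Ramp3 and 0 Samsn1 UMIs in 1, and 132 Isg15 and 34 Cxcl9 UMIs in another.

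**Figure D3:**
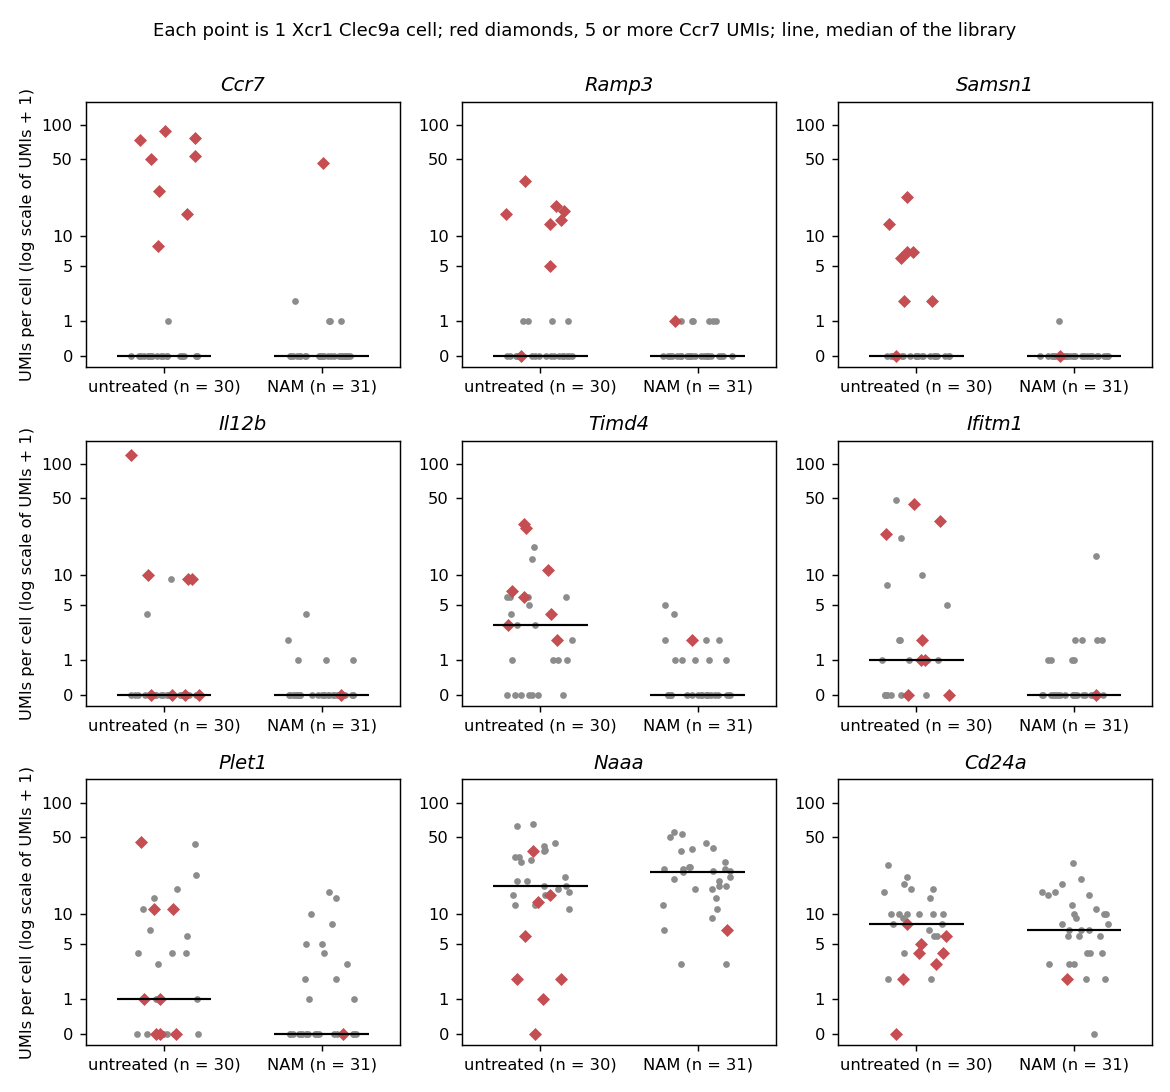
UMIs per cell (log scale of UMIs + 1) of 9 genes in each Xcr1 Clec9a cell of the untreated (30 cells) and NAM (31 cells) libraries. Red diamonds are members with 5 or more Ccr7 UMIs, 8 untreated and 1 NAM, and lines are medians over members of a library. Ramp3 and Samsn1 are almost limited to the diamonds, while Timd4, Ifitm1 and Plet1 are also high in other untreated members.

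The comparison of NAM with untreated members asks how the RNA of these cells differed between the treated and untreated tumours. Of 2553 genes, 310 were 1.5 fold or more higher in the NAM members (12.1%) and 245 were 1.5 fold or more lower (9.6%), with a median log2 ratio of 0.11. In other myeloid cells, where sums rest on far more UMIs, 22 (0.862%) and 56 (2.19%) of the same genes passed these limits. Scaled by the median of ratios, all log2 values shift by -0.11, and 207 genes were higher and 316 lower. Without the Ccr7-high members, 257 (10.1%) and 219 (8.58%) genes passed. Counts of list members below are to be read against these shares.

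Of the 12 genes lowest in NAM members, most were RNAs of few cells. Ccr7 had 391 UMIs in 9 untreated members and 51 UMIs in 5 NAM members. The log2 ratio was -2.82 (-3.28 to -2.41), and without the Ccr7-high members it was 1.55 on 1 and 5 UMIs. Ramp3 had 120 and 7 UMIs and a ratio of -3.90 (-5.34 to -2.90), which became 0.21 without those members. Samsn1 had 60 UMIs and 1 UMI, a ratio of -5.22 (-11.12 to -3.26), and Il12b had 160 and 9, a ratio of -3.97 (-5.20 to -3.08) that was -0.83 (-2.26 to 0.49) without them. Ears2, a mitochondrial tRNA synthetase, had 81 and 7 UMIs (-3.33). Serpinb1a, a neutrophil protease inhibitor, had 45 UMIs, 42 of them in 1 member, and 2 UMIs (-4.08, -7.47 to -2.45). AA467197 had 44 UMIs, 43 of them in 1 untreated member, and 0 in NAM members, at least 13.6-fold lower against a floor of 3 UMIs in the class. The hormone secretin (Sct) had 40 UMIs, all in 1 untreated member, and 0 in NAM members, at least 12.4-fold lower against the same floor.

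Timd4, Ifitm1, Cxcl1 and Plet1 were lower in NAM members beyond the Ccr7-high cells. Timd4, a receptor for phosphatidylserine on dying cells, had 166 UMIs in 23 untreated members and 22 in 11 NAM members, a log2 ratio of -2.78 (-3.52 to -2.16), and -2.24 (-3.05 to -1.54) without the Ccr7-high members. The highest NAM member held 5 UMIs, and 11 untreated members held more. Ifitm1, an interferon-induced membrane protein, had 205 and 27 UMIs (-2.79, -3.45 to -2.23), and 102 and 27 (-2.22) without those members. Its UMIs sat in few cells, with 48, 44 and 31 in the highest 3 untreated members and 15 in 1 NAM member. Of the 102, the highest members held 48 and 22. The neutrophil chemokine Cxcl1 had 49 UMIs in 16 members and 5 in 5, a ratio of -3.06 (-4.87 to -1.86), with 25 of the 49 UMIs in 1 member. Scin, an actin-severing protein, had 45 and 4 UMIs (-3.23, -5.32 to -1.93) and an interval that held 0 (-3.77 to 0.15) without the Ccr7-high members. Plet1 (chr9:50494525-50505482, plus strand, protein-coding) had 207 and 71 UMIs, a ratio of -1.43 (-1.84 to -1.04) that was -1.27 without the Ccr7-high members. Its untreated UMIs were concentrated, with 45, 43 and 23 in the highest 3 members, and after thinning to 3000 UMIs a Plet1 UMI was seen in 9 of 30 and 9 of 31 members. Plet1 was also found in Cd209a dendritic cells, at 133 and 84.9 CPM. With 1 UMI of Xcr1 or Clec9a as the limit, the ratios of Ifitm1 and Plet1 were smaller in size, as given in the closing sections.

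The 12 genes highest in NAM members had small counts and more even distributions. Hspa14, a ribosome-associated chaperone, had 12 UMIs in 11 untreated members and 36 in 21 NAM members (log2 ratio 1.66, 0.72 to 2.77). Dohh, which modifies the translation factor eIF5A, had 11 and 33 UMIs (1.65). Pepd, a dipeptidase, had 17 and 45 UMIs (1.49), Sgms1, a sphingomyelin synthase, had 21 and 54 (1.45), and Ssr1, a translocon subunit, had 17 and 42 (1.39). The peptidase Dpp4 (CD26) had 11 and 29 UMIs (1.47), in 9 of 30 and 15 of 31 members. After thinning a Dpp4 UMI was found in 0 of 30 untreated members, which allows a share with a UMI of up to 10% by a floor of 3 cells (11.6% by the Clopper-Pearson interval), and in 22.6% of NAM members, against 0.152% and 0.275% of C1q macrophages. Other dendritic cells carried it too, with thinned shares of 30.8% and 14.3% in Ccr7 Fscn1 cells and of 8.33% and 17.5% in Cd209a cells. The receptor gene Lpar6 had 15 and 37 UMIs (1.38), the cell death gene Siva1 14 and 34 (1.36), the signalling genes Rasgef1b 15 and 36 (1.34) and Rgs18 16 and 38 (1.33), and A430005L14Rik 15 and 36 (1.34). Serpina3g, an interferon-induced protease inhibitor, had 60 and 166 UMIs (1.57, 1.14 to 2.03), but 3 NAM members held 62, 43 and 26 of them. The other 11 had at most 7 UMIs in any member.

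By role, the genes of dendritic cell maturation stood lowest. Of 22 genes of the maturation list, 11 had enough UMIs, 9 of these 11 were 1.5 fold or more lower in NAM members, 0 were higher, and the median log2 ratio was -1.56. Beside Ccr7 and Il12b, Nfkb1 was at -1.68 (-2.53 to -0.96), Relb at -1.56 (-2.50 to -0.76), and Cd40 at -0.85 (-1.55 to -0.21). In untreated members outside the Ccr7-high cells, Nfkb1 was at 83.5 CPM, Relb at 46.1 and Cd40 at 49.0. In all NAM members these were at 42.6, 35.9 and 67.3 CPM, with 9 of 30 Cd40 UMIs in the Ccr7-high member. Traf1 had 113 and 52 UMIs. Cd63, a tetraspanin, was at -2.07 (-2.85 to -1.41), and at -1.08 (-1.95 to -0.28) without the Ccr7-high members, 2 of which held 25 and 24 of its 97 untreated UMIs. Cd83, a surface marker of maturation seen in 27 of 30 and 30 of 31 members, was at 0.00 (-0.24 to 0.24). Without the Ccr7-high members the median was -0.06, and 5 genes were lower and 1 was higher. In other myeloid cells the same genes had a median of -0.18, but in Cd209a dendritic cells it was -0.93 and in Ccr7 Fscn1 cells -0.41. Ccr7 itself was at 444 and 111 CPM in Cd209a dendritic cells. The list and the Ccr7-high members overlap by construction, since Ccr7 is on the list.

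Type I interferon response genes were mostly lower in NAM members, by an amount that depended on a few cells. Of 31 genes on the list, 17 had enough UMIs, 10 were 1.5 fold or more lower, 0 were higher, and the median log2 ratio was -0.69. It was -0.73 without the Ccr7-high members, with 9 genes lower, and 0.02 in other myeloid cells. In Cd209a dendritic cells (36 and 40 cells) the same genes had a median of -0.80. Ifitm3, a membrane protein that blocks virus entry, had 624 and 262 UMIs (-1.14, -1.36 to -0.93). Ifi27l2a had 245 and 106 (-1.10, -1.44 to -0.76), Oasl1 72 and 22 (-1.58, -2.36 to -0.90) and the transcription factor Irf7 290 and 178 (-0.59, -0.87 to -0.32), with 94 and 69 of these in 1 member each. The direction of Irf7 turned among members with both Xcr1 and Clec9a (0.18), and Ifitm3 was there at -0.41. The ubiquitin-like protein Isg15 had 251 and 100 UMIs (-1.21, -1.57 to -0.88), but 132 of the 251 were in 1 untreated member and 64 of the 100 in 1 NAM member. The nucleic acid sensor Zbp1 was at 0.05 (-0.46 to 0.55), and Ly6e at 0.41 (0.15 to 0.69), or -0.01 without the Ccr7-high members.

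The spread between cells was wide for this list. Its summed level ran from 1280 to 29833 CPM among untreated members (median 4209) and from 865 to 34764 CPM among NAM members (median 2972), so the libraries overlapped over most of their range. Among members with UMIs of both Xcr1 and Clec9a (23 and 25 cells) the list's median log2 ratio was -0.15 in place of -0.69. That narrower rule leaves out 3 untreated members with Clec9a UMIs alone, 2 of them Ccr7-high members with 585 and 319 interferon UMIs. It also leaves out 4 untreated and 6 NAM members with Xcr1 UMIs alone, among them an untreated Ccr7-high member with 168 interferon UMIs. Leaving out only the 2 untreated members that held both Ccr7 and Fscn1 gave -0.20. In the members as a whole the list was below the other myeloid cells, which summed to 9852 (untreated) and 10414 CPM (NAM) against 7347 and 4464 CPM.

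The promoters of these genes were searched for the interferon-stimulated response element (ISRE), searched as GAAA, any 2 bases and GAAA, on both strands from 250 bases before to 50 bases after the start. Of the 17 genes, 12 matched a RefSeq promoter (GRCm38.p6), and 5 of these 12 held the letters, against 3.99% of 27025 genes. The windows below show 4 of them, to let the shared element be seen beside the values. Capitals mark the ISRE letters, each window is read 5′ to 3′ on the strand of the gene, and a match is a description and not a measured site.
Isg15, chr4:156200871-156200900, minus strand: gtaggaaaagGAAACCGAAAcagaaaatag
Ifitm3, chr7:141010706-141010735, minus strand: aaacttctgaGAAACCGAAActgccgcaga
Ifitm2, chr7:140955988-140956017, minus strand: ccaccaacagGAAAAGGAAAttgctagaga
Bst2, chr8:71537577-71537606, minus strand: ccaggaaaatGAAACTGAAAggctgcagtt
The Isg15 promoter held 3 overlapping matches, and those of Ifitm3 and Bst2 held 2 each. Log2 ratios of Isg15, Ifitm3, Ifitm2 and Bst2 were -1.21, -1.14, -0.69 and -0.32, and that of Bst2 had an interval that held 0 (-0.75 to 0.10). Trim30a, the fifth gene, was at -0.78 (-1.59 to -0.03). The composite element of Ets and Irf factors (EICE), searched as GGAA, any 2 bases and GAAA, was found in 1 of the 12 genes (Ifi44) and in 3.16% of all genes, and the NF-kB consensus in 2 (Ifitm3 and Oasl1) and in 6.55%. Of the 20 genes furthest above other myeloid cells 13 matched a promoter, and 0 held ISRE letters, 1 held the EICE (Ppp1r14a) and 0 held the NF-kB consensus. Of Ccr7 and 12 genes of the Ccr7-high members 11 matched, with 1 of each, in Serpinb9, Samsn1 and Ramp3.

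Interferon gamma response genes showed no common direction. Of 13 genes with enough UMIs, 2 were higher and 4 lower by 1.5 fold, with a median of 0.11, the same as for all genes to 2 decimals. The chemokine Cxcl10 had 47 and 12 UMIs (-1.82, -2.91 to -0.92), but 4 untreated members held 20, 8, 7 and 6 of the 47, and after thinning the shares of members with a Cxcl10 UMI were 13.3% (untreated) and 16.1% (NAM). Cxcl9 had 67 and 81 UMIs (0.38, -0.10 to 0.87). In other myeloid cells the list had a median of 0.41, Cxcl10 was at 0.28 and Cxcl9 at 0.51. Chemokines and cytokines as a list had a median of -0.84 over 9 genes, 5 of them 1.5 fold or more lower. Cxcl2 was at -1.55 (-2.16 to -1.01). Ccl4 was at -0.84 (-1.11 to -0.58), but 3 untreated members held 126, 65 and 47 of its 347 UMIs, while 18 untreated and 22 NAM members had a Ccl4 UMI and the median member was at 73.9 and 122 CPM. Il1b was at -0.47 (-0.63 to -0.30), and at 0.037 when 1 UMI of Xcr1 or Clec9a was enough for a member.

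The 8 tested MHC class II genes had small ratios above 0 in NAM members. Their median was 0.31, and 7 had an interval above 0, where 1531 of all 2553 genes had a ratio above 0 and 333 an interval above 0. The 1.5 fold limit was passed by 2 of the 8, and by 0 without the Ccr7-high members. Cd74, the invariant chain, had 13330 and 14665 UMIs (0.25, 0.21 to 0.28). H2-Ab1 was at 0.37 (0.32 to 0.43), H2-Eb1 at 0.22 (0.15 to 0.28), H2-Aa at 0.06 (0.01 to 0.10), and H2-DMb1, a subunit of the peptide exchanger, at 0.69 (0.52 to 0.87). The direction of H2-Aa turned with the scaling by median of ratios (-0.05). In Cd209a dendritic cells the class II genes had a median of 0.30, in Ccr7 Fscn1 dendritic cells 0.33 and in other myeloid cells 0.41, with H2-Aa at 0.39 and H2-Eb1 at 0.43. Per cell, the summed list ran from 35034 to 143048 CPM in untreated and from 43086 to 110453 CPM in NAM members, with medians of 63398 and 76573.

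In the list of cross-presentation and MHC class I, 24 genes had enough UMIs, 20 had a ratio above 0 and 8 an interval above 0, and the median was 0.21. Of the 24, 2 were 1.5 fold or more higher and 0 lower, a share below the 12.1% of all genes, and without the Ccr7-high members 5 were higher. The peptide transporter subunit Tap2 (chr17:34203527-34216321, plus strand, protein-coding) had 78 and 147 UMIs (1.02, 0.62 to 1.44). Its partner Tap1 had 167 and 192 (0.31, 0.00 to 0.62). The disulfide isomerase Pdia3 of the peptide loading complex was at 0.84 (0.56 to 1.13). The heavy chain H2-D1 had 1518 and 2109 UMIs (0.58, 0.49 to 0.68), H2-K1 was at 0.15 (-0.01 to 0.31) and B2m at 0.02 (-0.08 to 0.11). Wdfy4 had 105 UMIs in each library (0.11, -0.29 to 0.51). In other myeloid cells Tap2 was at 0.56, H2-D1 at 0.46 and Pdia3 at 0.22, in the same direction as in the members.

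**Figure D4:**
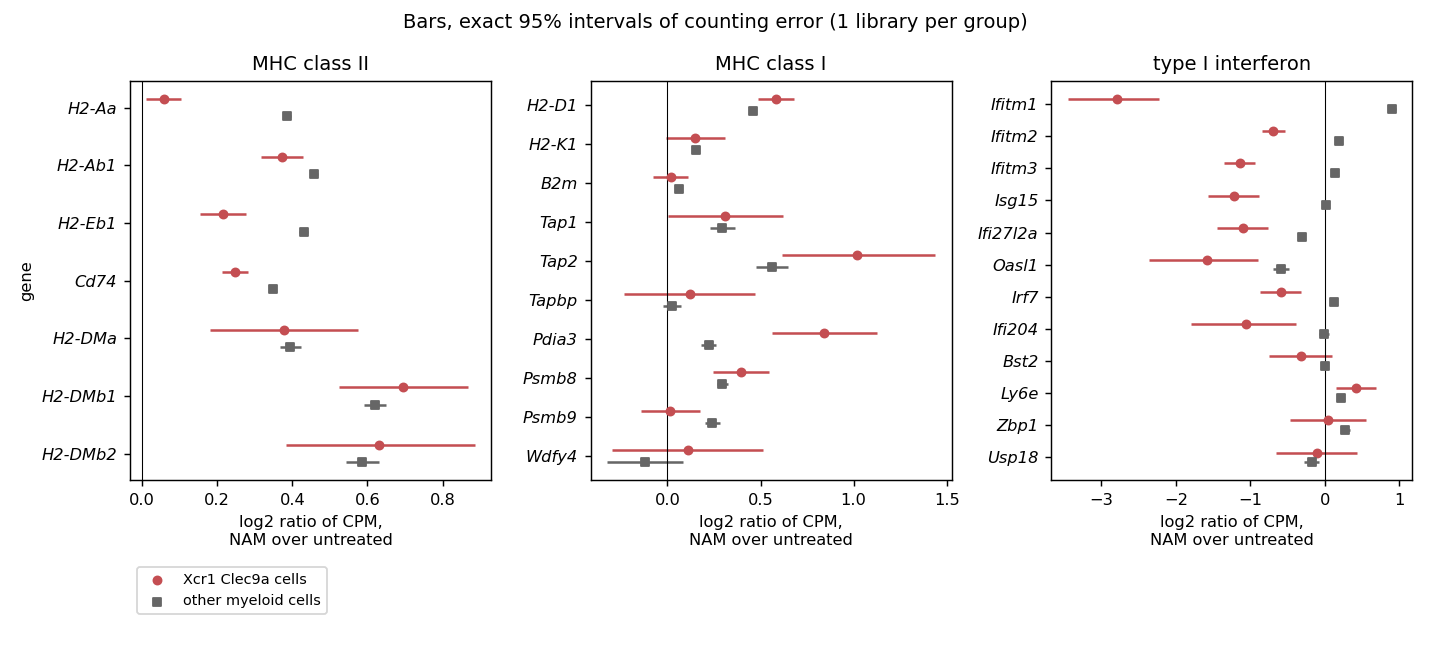
Log2 ratio of CPM, NAM over untreated, for genes of MHC class II, MHC class I and the type I interferon response (rows) in Xcr1 Clec9a cells (red circles) and other myeloid cells (grey squares), with exact 95% intervals of counting error as bars, 1 library per group. Most class II and class I genes lie above 0 in both classes of cells, while Ifitm3 lies at -1.14 in Xcr1 Clec9a cells and at 0.13 in other myeloid cells.

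The marker genes of the members were mostly level, while the ratios of lineage transcription factors were mostly below 0. Over the 14 tested markers outside the rule the median log2 ratio was 0.17, with 2 higher (Tlr3 and Rab7b) and 1 lower (Plet1) by 1.5 fold. Xcr1, which chose the members, had 119 and 212 UMIs and Clec9a 65 and 58. Cd24a was at 0.10 (-0.15 to 0.34), Itgae at 0.04 (-0.60 to 0.69), Batf3 at -0.16 (-0.77 to 0.45), Btla at 0.42 (-0.08 to 0.94) and Gcsam at 0.50 (0.10 to 0.90). Naaa was at 0.24 (0.09 to 0.40) and Irf8 at 0.18 (0.04 to 0.32), but without the Ccr7-high members they were at -0.03 and -0.17. Id2 was at -0.47 (-0.65 to -0.30) and at 0.11 without them. The 10 tested lineage transcription factors had a median of -0.35, or -0.27 without the Ccr7-high members and 0.15 after thinning. Of the 10, 8 had a ratio below 0, as did 1022 of all 2553 genes. By 1.5 fold, 2 were lower and 0 higher. Rab7b was at 0.94 (0.47 to 1.43), Cxcr3 at 1.31 (0.50 to 2.22) and Tlr3 at 1.09 (0.17 to 2.11, 15 and 30 UMIs). The receptor Notch2 was at -1.42 (-2.13 to -0.79), and at -1.30 in other myeloid cells.

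Among growth factor receptors and survival genes, 4 of 7 were 1.5 fold or more lower and 0 higher, with a median of -0.78, or -0.11 without the Ccr7-high members. Csf2rb, the shared chain of the GM-CSF receptor, was at -1.18 (-1.78 to -0.62), and at -0.11 without those members. The antiapoptotic genes Mcl1 and Bcl2a1b were at -0.78 (-1.24 to -0.35) and -0.85 (-1.05 to -0.64), and the latter was at -0.07 without them. Flt3 was at -0.53 (-1.22 to 0.13) and Kit at -0.92 (-2.02 to 0.06). Costimulation and inhibitory ligands had a median of -0.14 over 10 genes.

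More members than other myeloid cells carried RNA of G2 and M phase genes, in both libraries. With a limit of 0.3% of UMIs from 20 genes of G2 and M phase, set after the values were seen, 8 of 30 untreated (26.7%, 12.3 to 45.9) and 8 of 31 NAM members (25.8%, 11.9 to 44.6) were above it, against 7.84% and 7.05% of other myeloid cells. After thinning to 3000 UMIs the shares were 23.3% and 25.8% in members and 7.76% and 7.49% in other myeloid cells. Within 0.1 percentage points of the limit lay 1 untreated and 4 NAM members. In the untreated library 1 of the 8 Ccr7-high members was above the limit, and 7 of the other 22. Ribonucleotide reductase Rrm2 (0.95, 0.24 to 1.71), the histone mRNA binder Slbp (1.10, 0.44 to 1.81) and Dut (0.84, 0.13 to 1.59) were higher in NAM members, though 15 of 26 and 17 of 47 Rrm2 UMIs sat in 1 member each. All 7 tested S phase genes had a ratio above 0, as did 1531 of all 2553 genes, 4 passed 1.5 fold, and the median was 0.84, against -0.20 in other myeloid cells, -0.94 in Cd209a dendritic cells and 0.94 in Ccr7 Fscn1 dendritic cells. This median was 0.15 when 1 UMI of Xcr1 or Clec9a was enough for a member, 0.19 after thinning and 0.45 without the 25% of members richest in macrophage UMIs. The G2 and M list had a median of -0.27 over 14 genes, and 0.24 after thinning.

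**Figure D5:**
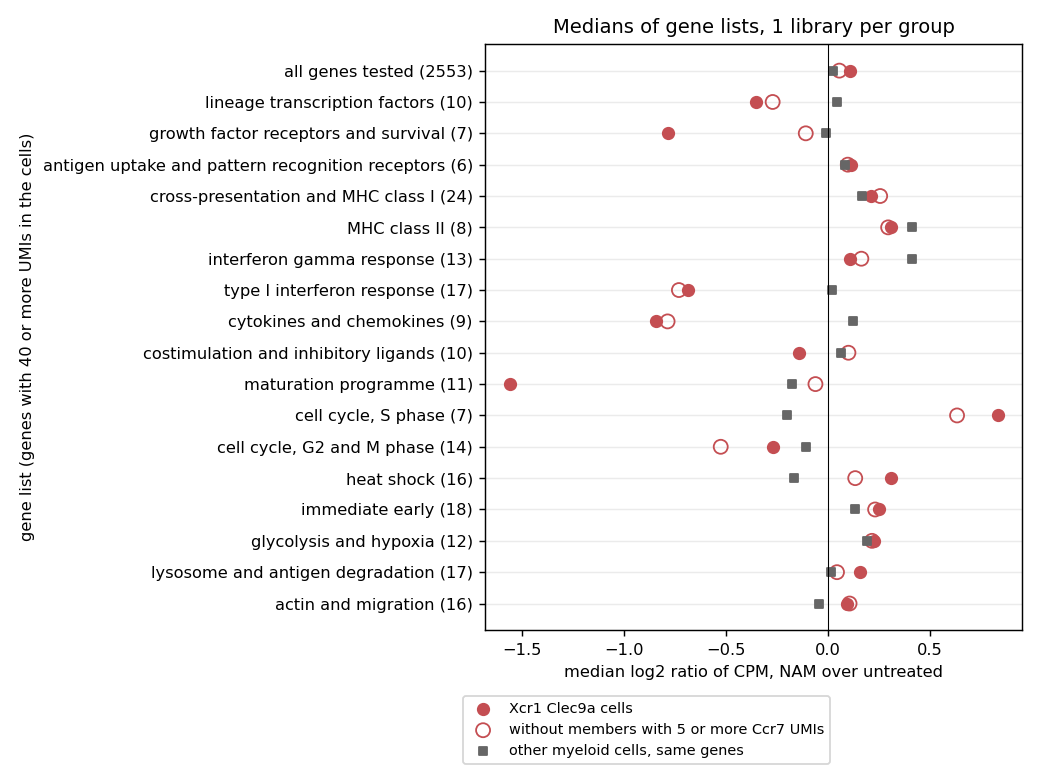
Median log2 ratio of CPM, NAM over untreated, of gene lists (rows, with the number of genes with 40 or more UMIs) in Xcr1 Clec9a cells (filled circles), in these cells without members of 5 or more Ccr7 UMIs (open circles) and in other myeloid cells (squares), 1 library per group. The maturation list moves from -1.56 to -0.06 without those members, while the type I interferon list stays at -0.69 and -0.73.

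Stress and early response genes varied in both directions. The inducible heat shock genes Hspa1a and Hspa1b were at -0.95 (-1.15 to -0.76) and -1.62 (-2.23 to -1.07) in members and at -1.41 and -2.43 in other myeloid cells, while the 16 tested heat shock genes had a median of 0.31. Of 18 immediate early genes, 5 were 1.5 fold or more higher, 0 were lower and the median was 0.25. Fos had 203 and 426 UMIs (1.18, 0.93 to 1.43), 133 of them in 1 NAM member. Klf2 was at 1.07 (0.76 to 1.38), with 97 of 257 NAM UMIs in 1 member, and Nr4a1 at 0.83 (0.48 to 1.19).

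Actb, the beta actin gene, was lower in the NAM library in members and in other myeloid cells. It had 16091 and 7231 UMIs in members (-1.04) and a ratio of -0.97 in other myeloid cells, while 16 tested actin and migration genes had a median of 0.10. Psap, a lysosomal lipid cofactor, was at 0.49 (0.40 to 0.57) in members and 0.04 in other myeloid cells, and the protease Lgmn was at -1.02 (-1.58 to -0.50) and -0.03. Without the Ccr7-high members Lgmn was at -0.29 (-0.93 to 0.36), and its median member was at 59.5 CPM untreated and 75.9 CPM under NAM. Over 17 lysosome genes the median was 0.16, with 1 higher and 5 lower by 1.5 fold. Of 24 genes of NAD metabolism, 3 had enough UMIs. Nampt, which turns NAM into its mononucleotide, had 26 and 30 UMIs (0.31, -0.49 to 1.13), Nadk had 50 and 44, and Sirt2 had 54 and 48. No difference in these 3 was detectable at this depth. Of 12 tested glycolysis and hypoxia genes 0 passed 1.5 fold, and the median was 0.22. Over 6 antigen uptake and sensing receptors the median was 0.12, with 1 gene higher.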

How the data were processed

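Tumour CD45+ cells were profiled by the authors with 10x Genomics Single Cell 3′ version 2 chemistry and Cell Ranger 2.1.0 on mm10. The deposited values are raw UMI counts per gene and cell, whole numbers with no normalisation, for 27998 gene symbols. Cells ranged from 3001 to 41658 UMIs. All deposited cells lay inside the study's stated limits on genes, UMIs and mitochondrial share. The members and gene lists were chosen with earlier results of these data known.

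UMIs were summed over the cells of a class in each library and divided by the class total (CPM) with exact Poisson intervals. Log2 ratios used a pseudocount of 0.5 UMIs and exact conditional binomial intervals, shares used Clopper-Pearson intervals, all at 95%. Genes with 40 or more UMIs over both libraries were used. C1q macrophages had C1q of 0.2% or more, Ccr7 Fscn1 dendritic cells at least 1 UMI of each and 3 together, Cd209a dendritic cells 2 Cd209a UMIs, and T cells 2 Cd3e UMIs. Named genes were list members, the 12 highest and 12 lowest ratios whose interval left out 0, and the 20 furthest above other myeloid cells. Genes of the Ccr7-high members, and Actb, were chosen after their values were seen. Doublets were left in, since the study's methods name no removal step, and 0 members exceeded 2 times the median UMIs of their library's members. Those medians, 16087.5 and 15941 UMIs, lay above the 9310.5 and 9288 of other myeloid cells. This limit therefore cannot show that doublets are absent. The ratios and intervals were tested on simulated class sums drawn with Poisson error alone. That simulation had no spread between cells, so it cannot show how they behave for UMIs concentrated in few members. Coordinates are from GENCODE vM21 (GRCm38). Alternatives covered the rule, scaling, filter, pseudocount, cell weight, depth, and left-out cells. Python 3.11.15, NumPy 2.4.6, SciPy 1.17.1, pandas 2.3.3 and matplotlib 3.10.9 were used, with random seed 1.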

Additional observations from a re-analysis of the deposited data

Results flagged for a closer look

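For 12 named genes the NAM over untreated log2 ratio had opposite signs in the Xcr1 Clec9a cells and in other myeloid cells, with both counting intervals on their own side of 0 and at least 1.5 fold in the Xcr1 Clec9a cells. The difference between the classes of cells was not tested, and each library is 1 sample. Of the 12, 7 were lower in NAM members. Scin was at -3.23 in members and 1.32 in other myeloid cells, Ifitm1 at -2.79 and 0.90, Cd63 at -2.07 and 0.12, Cxcl10 at -1.82 and 0.28, Plet1 at -1.43 and 1.11, Ifitm3 at -1.14 and 0.13, and Irf7 at -0.59 and 0.12. Without the members of 5 or more Ccr7 UMIs, Scin was at -1.54 with an interval that held 0 (-3.77 to 0.15), and the other 6 of these kept intervals below 0. Irf7 turned to 0.18 among members with both Xcr1 and Clec9a. With 1 UMI of Xcr1 or Clec9a as the limit, Ifitm1 was at -0.95, Cxcl10 at -0.64, Plet1 at -0.72 and Ifitm3 at -0.46. Of the 47 untreated Cxcl10 UMIs, 20 sat in 1 member.

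The other 5 were higher in NAM members. Pepd was at 1.49 in members and -0.17 in other myeloid cells, Sgms1 at 1.45 and -0.17, Ssr1 at 1.39 and -0.11, Rgs18 at 1.33 and -0.34, and Rrm2 at 0.95 and -0.27. Without the Ccr7-high members the interval of Rrm2 held 0 (-0.09 to 1.42), and Rrm2 was at 0.15 with the 1 UMI limit.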

How the results depend on the processing

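No paired analysis was possible because each group is 1 library. Over 83 genes compared between libraries within members, 934 of 1079 recomputed values stayed within the counting interval. The alternative that leaves out members above 2 times the median UMIs removed 0 members, so its values repeat the reported ones. The median of ratios shifts every log2 value by the same -0.11. The 934 is therefore no measure of how stable the values are. The sign changed in 48 of the 1079, in 29 of these for a gene whose reported interval already held 0, and the other 19 follow. Without the Ccr7-high members, an alternative added after the data were seen, Ccr7 was at 1.55, Ramp3 at 0.21, Samsn1 at 1.26, Serpinb1a at 0.42, Ly6e at -0.013, Naaa at -0.030, Irf8 at -0.17 and Id2 at 0.11. The maturation list was then at -0.061 and the growth factor receptor list at -0.11, and Ccr7 over other myeloid cells was at -3.17 (untreated) and -1.07 (NAM). Requiring both Xcr1 and Clec9a gave 0.064 for AA467197 and Sct and 0.18 for Irf7. Without the 2 members of each library highest in a gene AA467197 was at 0.11 and Sct at 0.058, without Ccr7 and Fscn1 members Sct was at 0.0085, and without the 25% of members richest in macrophage UMIs Serpinb1a was at 0.065. Sct and AA467197 sat almost wholly in 1 untreated member, so these values without it are those of the pseudocount and class totals. H2-Aa was at -0.052 by median of ratios, -0.023 by the mean of per-cell CPM and -0.094 after thinning. With 1 UMI as the limit Il1b was at 0.037 and the MHC class II list at 0.43. The share value was 1.12 when cells were thinned before the rule. Counts of genes past 1.5 fold were 616 higher and 508 lower with 20 or more UMIs (4053 genes tested), 81 and 79 with 100 or more (1144 genes), and 550 and 432 after thinning, where fewer UMIs stand behind each gene. The S phase list gave no value at 100 or more UMIs. It ranged from 0.15 to 0.92 elsewhere. List medians that took both signs were those of lineage transcription factors (-0.46 to 0.15), interferon gamma (-0.35 to 0.44), costimulation (-0.28 to 0.10), G2 and M phase (-0.53 to 0.24), uptake receptors (-0.052 to 0.39), glycolysis (-0.013 to 0.42) and actin (-0.014 to 0.14). Counts over other myeloid cells ran from 242 to 271 higher and from 133 to 151 lower. The cause of the sign changes was not tested. Depth limits all of these, since members of a library hold 480635 and 445571 UMIs.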
